A study of Homo sapiens with 6 samples.

Results

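WNT ligands, their Frizzled (FZD) receptors and the secreted antagonists of the Dickkopf (DKK) and secreted Frizzled-related protein (SFRP) families were examined in Hey and SKOV3 as parental cells, as polyploid giant cancer cells (PGCCs) and as their daughter cells, both being established cell lines from human ovarian cancer. Members were found by symbol, as WNT, FZD, DKK or SFRP followed by a digit, with names that hold a hyphen or end in P left out. This gave 37 of the 59008 genes in the table, namely 19 WNT, 10 FZD, 4 DKK and 4 SFRP genes. RNA was sequenced as 1 library per condition, 6 in all, and the measure is TPM, a relative transcript abundance that corrects for transcript length and is scaled within each library. Parental cells were untreated. Per the labels, PGCCs were exposed to 500 nM paclitaxel, a microtubule-stabilizing drug that blocks mitosis, for 16 hours and left to recover for 3 days, although the title of the SKOV3 PGCC library gives day 7. Daughter cells received the same exposure and 30 days of recovery, and the titles call the daughter library of each line clone 1. The untreated library of a line is the shared reference of both treated states. Differences are of log2(TPM + 1) within a line, and a gene was called higher or lower at a difference of at least 1, which is 2-fold. With 1 library per condition these calls carry no error and no p-value.

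WNT proteins are secreted lipid-modified glycoproteins that bind the cysteine-rich domain of Frizzled receptors. With the coreceptors LRP5 and LRP6 they stabilize β-catenin, which then acts with TCF and LEF factors on target genes, while WNT5A and related ligands are best known for β-catenin-independent signalling through receptors such as ROR1 and ROR2. DKK1 blocks the pathway by binding LRP5 and LRP6, and SFRPs carry a Frizzled-like domain with which they bind WNT proteins outside the cell. In the female reproductive tract WNT4 and WNT7A are known for their roles in the development of the Müllerian duct.

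The members on which the results turn have promoters of very different base composition. The 250 bases before the transcription start are shown 5′ to 3′ for the ligands that dominate Hey (WNT5B and WNT5A, each with 2 annotated starts), 2 of the ligands that dominate SKOV3 (WNT7A and WNT10A), the receptor that most sets Hey apart (FZD8) and the most abundant member (DKK1). They were taken from RefSeq on GRCh38.p14, from which 28 promoter entries of 25 of the 37 members were used. FZD6, FZD3, SFRP1 and DKK4 were among the members not included, so the word counts below do not cover them. Capitals mark the TCF/LEF words CTTTGAT and CTTTGTT, the AP-1 word TGANTCA and the TATA word TATAAA, searched on both strands, so that TATAAA on the opposite strand reads TTTATA.
WNT5B upstream start, chr12:1616806-1617055, plus strand: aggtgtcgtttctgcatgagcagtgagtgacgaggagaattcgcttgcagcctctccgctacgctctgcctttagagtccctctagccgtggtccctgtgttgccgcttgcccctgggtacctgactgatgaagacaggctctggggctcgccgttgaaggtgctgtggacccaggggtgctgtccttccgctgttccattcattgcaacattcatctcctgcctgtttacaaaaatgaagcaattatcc
WNT5B downstream start, chr12:1628981-1629230, plus strand: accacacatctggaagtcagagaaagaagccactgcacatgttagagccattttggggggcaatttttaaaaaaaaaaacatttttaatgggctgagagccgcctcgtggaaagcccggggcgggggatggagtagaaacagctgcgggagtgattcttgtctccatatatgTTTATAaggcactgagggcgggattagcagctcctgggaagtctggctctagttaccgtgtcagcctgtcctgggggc
WNT5A upstream start, chr3:55487307-55487556, minus strand: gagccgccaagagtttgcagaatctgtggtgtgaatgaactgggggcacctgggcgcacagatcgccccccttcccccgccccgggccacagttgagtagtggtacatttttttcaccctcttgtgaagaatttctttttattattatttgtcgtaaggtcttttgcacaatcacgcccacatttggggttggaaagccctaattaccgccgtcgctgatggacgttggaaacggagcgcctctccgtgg
WNT5A downstream start, chr3:55481399-55481648, minus strand: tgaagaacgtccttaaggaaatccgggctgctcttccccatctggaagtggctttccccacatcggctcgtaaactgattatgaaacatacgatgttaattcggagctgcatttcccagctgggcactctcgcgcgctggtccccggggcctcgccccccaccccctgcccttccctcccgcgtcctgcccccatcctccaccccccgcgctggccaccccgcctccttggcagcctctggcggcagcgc
WNT7A, chr3:13880072-13880321, minus strand: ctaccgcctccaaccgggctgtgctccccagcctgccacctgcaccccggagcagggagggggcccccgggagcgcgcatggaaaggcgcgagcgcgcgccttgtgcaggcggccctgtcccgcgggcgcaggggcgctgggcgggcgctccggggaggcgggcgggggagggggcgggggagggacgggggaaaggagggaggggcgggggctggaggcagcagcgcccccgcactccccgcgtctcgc
WNT10A, chr2:218880602-218880851, plus strand: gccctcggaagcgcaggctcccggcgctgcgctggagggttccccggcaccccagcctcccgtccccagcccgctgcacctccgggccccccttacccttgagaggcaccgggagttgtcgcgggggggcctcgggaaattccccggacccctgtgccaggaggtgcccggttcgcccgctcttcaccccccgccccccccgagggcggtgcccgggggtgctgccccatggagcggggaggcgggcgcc
FZD8, chr10:35642297-35642546, minus strand: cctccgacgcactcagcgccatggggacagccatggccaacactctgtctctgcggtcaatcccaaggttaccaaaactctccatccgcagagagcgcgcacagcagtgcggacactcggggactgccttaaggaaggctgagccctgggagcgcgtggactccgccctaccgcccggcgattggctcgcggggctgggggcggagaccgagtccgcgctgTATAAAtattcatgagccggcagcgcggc
DKK1, chr10:52314031-52314280, plus strand: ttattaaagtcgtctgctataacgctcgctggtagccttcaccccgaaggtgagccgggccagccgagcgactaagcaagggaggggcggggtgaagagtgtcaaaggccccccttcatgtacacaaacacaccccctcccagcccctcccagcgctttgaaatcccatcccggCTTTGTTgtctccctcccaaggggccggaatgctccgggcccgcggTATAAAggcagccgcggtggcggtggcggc
GC content was 62.8% in the DKK1 window and 65.2% in that of FZD8. The WNT5B windows had 54.8% and 50.8% and the WNT5A windows 52.8% and 64.4%, against 80.4% for WNT7A and 77.6% for WNT10A. The median of all 35116 promoter windows was 58%. A TCF/LEF word was found in 1 of the 28 member windows, that of DKK1, and 6.6% of all windows held at least 1 of both words. TATAAA occurred in 3 member windows, those of DKK1, FZD8 and the downstream start of WNT5B, and in 10.7% of all windows. TGANTCA occurred in 0 member windows and in 6.57% of all windows. A word match describes the letters and is not evidence of binding.

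The libraries carried the markers of epithelial ovarian carcinoma cells unevenly. KRT8, KRT18, KRT7 and PAX8 were well above 1 TPM in all 6 libraries, and MUC16 reached at most 1.59 TPM. CDH1 was listed at 0 in Hey parental cells and PGCCs. In SKOV3 parental cells, PGCCs and daughter cells CDH1 was at 1.47, 4.35 and 8.35 TPM. EPCAM was at 0.957, 1.43 and 0.369 TPM in Hey and 68.8, 43.6 and 8.15 in SKOV3, and KRT19 at 2.47, 3.6 and 0 in Hey and 292, 711 and 80.2 in SKOV3, both lowest in the daughter cells of each line. The summed TPM of 5 leukocyte markers was between 0.21 and 1.09. Fibroblast markers summed to 0.302, 3.66 and 0.274 TPM in Hey parental cells, PGCCs and daughter cells, and to 12.9, 13.2 and 28.3 in SKOV3. Of the endothelial markers CDH5 was at 48.5, 35.5 and 33.2 TPM in Hey, with VWF and PECAM1 at most 0.272. Mitochondrial genes took between 2.64% and 14.8% of the TPM. In SKOV3 the difference between PGCCs and parental cells followed transcript GC content, with a Spearman correlation of 0.72 over 13468 genes of the same library pair, and -0.46 between daughter cells and PGCCs. In Hey the same correlations lay between -0.04 and 0.10. The median transcript GC content was 54.9% over all members, expressed or not, against 47.7% for the expressed genes. Expressed genes are those that average at least 1 TPM over the libraries. The sets are unlike, so these medians do not give the GC excess of the expressed members alone. Values with the trend in GC content and length removed are also given for genes described here. These are bulk libraries, in which fewer expressing cells and less RNA per cell cannot be told apart.

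Of the 37 members, 22 reached 1 TPM in at least 1 library, 10 were above 0 but under 1 TPM throughout, and 5 (WNT1, WNT8A, WNT8B, DKK4 and SFRP2) were listed at 0 in all 6 libraries. By family, 10 of 19 WNT, 8 of 10 FZD, 3 of 4 DKK and 1 of 4 SFRP genes reached 1 TPM. The antagonists were the most abundant members. DKK1 and SFRP1 exceeded every ligand and receptor in all 3 Hey libraries, whereas in SKOV3 the receptor FZD6 was above SFRP1 in all 3 libraries and, in daughter cells, at 69.5 TPM also above DKK1 at 51.8.

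**Figure D1:**
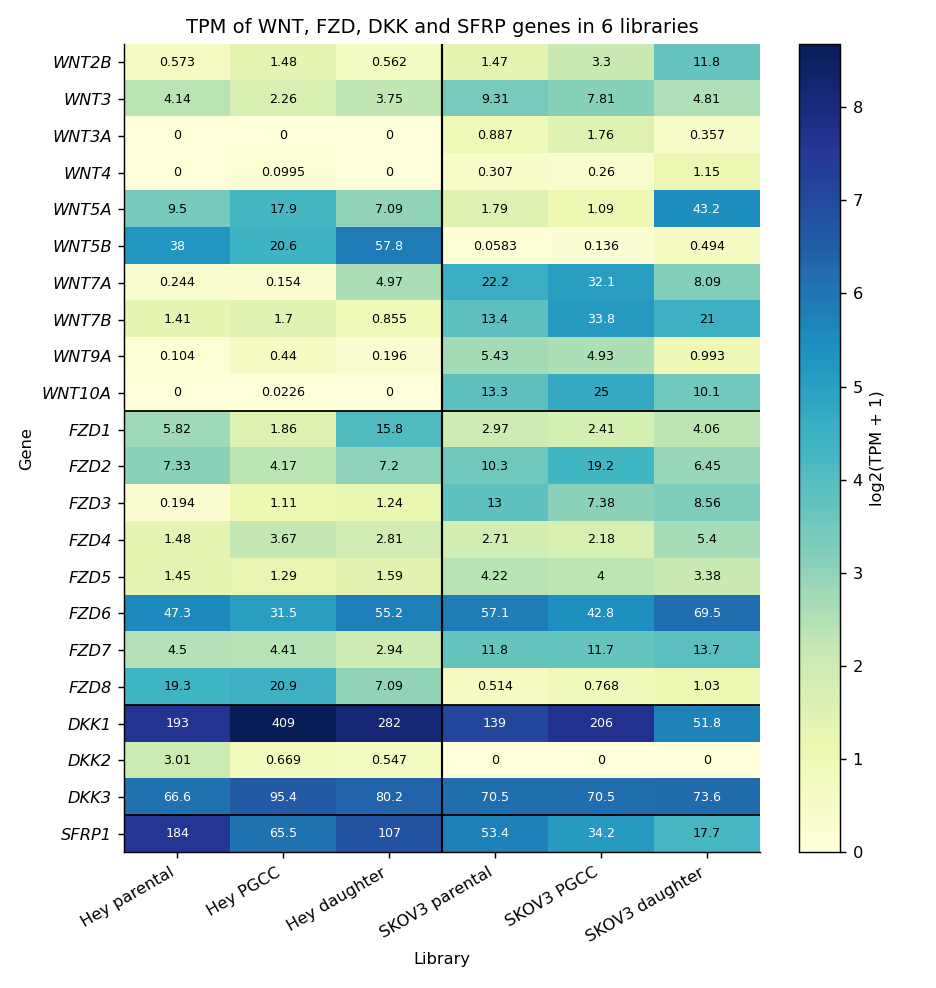
Heat map of the 22 members with at least 1 TPM in any library (rows) in 6 libraries (columns); cell numbers are TPM and colour is log2(TPM + 1). DKK1, DKK3 and FZD6 are dark in every column, while WNT5B and FZD8 are dark only on the Hey side and WNT7A, WNT7B and WNT10A mainly on the SKOV3 side.

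Both lines expressed WNT ligands, but different ones. Hey was a WNT5B and WNT5A line, these genes making up 87.6%, 85.5% and 85.5% of the summed WNT TPM in parental cells, PGCCs and daughter cells. In SKOV3 the same pair made up 2.7% and 1.1% in parental cells and PGCCs and 42.2% in daughter cells. WNT7A, WNT7B and WNT10A together made up 71.5%, 81.6% and 37.8% in SKOV3, against 3.06%, 4.17% and 7.67% in Hey. The summed WNT TPM itself was 54.2, 44.9 and 75.9 in Hey and 68.4, 111 and 104 in SKOV3.

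**Figure D2:**
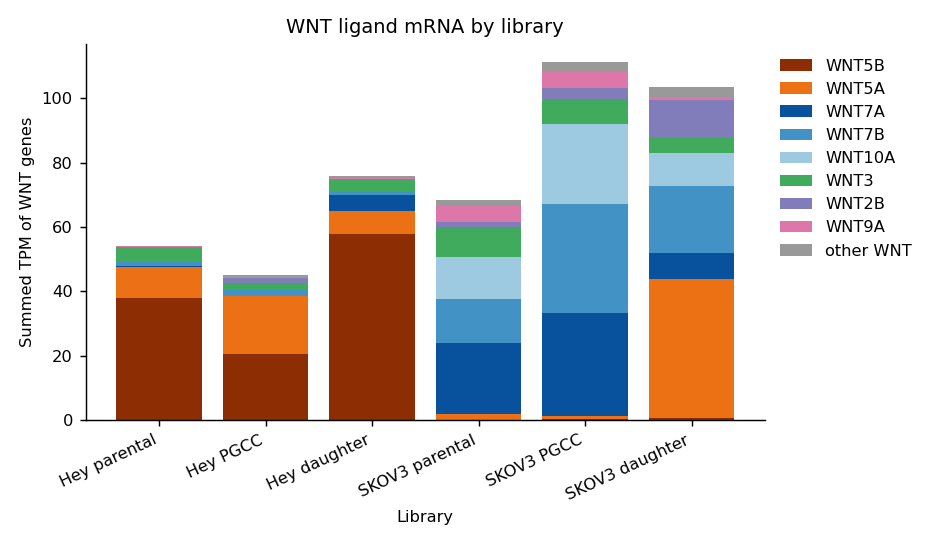
Stacked bars of TPM of the WNT genes by library, with the summed TPM on the y axis. Hey bars are mostly WNT5B and WNT5A, the SKOV3 parental and PGCC bars mostly WNT7A, WNT7B and WNT10A, and the SKOV3 daughter bar holds 43.2 TPM of WNT5A.

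WNT5B, a close relative of WNT5A, lies on chromosome 12 from 1529891 to 1647212 (GRCh38, GENCODE release 44). In Hey the parental cells stood at 38 TPM, the PGCCs at 20.6 and the daughter cells at 57.8. In SKOV3 the values were 0.0583, 0.136 and 0.494 TPM. Every Hey library was far above every SKOV3 library. Within Hey it was lower in PGCCs than in parental cells by less than 2-fold (-0.85) and higher in daughter cells than in PGCCs by 1.45.

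WNT5A, on chromosome 3 from 55465715 to 55490539, moved in opposite directions in the lines. In Hey it was at 9.5, 17.9 and 7.09 TPM in the same order of states, highest in the PGCCs. In SKOV3 it was at 1.79, 1.09 and 43.2 TPM, so the daughter cells stood apart from both other states. The difference between daughter cells and PGCCs was -1.22 in Hey and 4.40 in SKOV3, and that between SKOV3 daughter and parental cells was 3.99. Removing the trend in GC content and length left 3.95 and 3.83 for SKOV3. Beside this, the fibroblast markers COL1A1 (16.3 TPM), PDGFRB (5.35 TPM) and PDGFRA (0.945 TPM) were also highest in SKOV3 daughter cells. LUM (5.56 TPM), DCN (0.0292 TPM) and COL1A2 (0.0137 TPM) were lowest among the SKOV3 libraries there. THY1 (0.069 TPM) lay between SKOV3 parental cells and PGCCs, and COL3A1 was listed at 0 in SKOV3. The epithelial markers EPCAM, KRT19, KRT8 and MUC16 were lowest among the SKOV3 libraries in daughter cells. CDH1 (8.35 TPM) and WT1 (2.91 TPM) were highest there, and KRT18, KRT7 and PAX8 lay between SKOV3 parental cells and PGCCs. The part of these markers in the WNT5A value was not tested.

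WNT7A, on chromosome 3 from 13816258 to 13880071, showed the reverse arrangement. It was at 22.2, 32.1 and 8.09 TPM in SKOV3 parental cells, PGCCs and daughter cells, lowest in the daughter cells. In Hey it was at 0.244, 0.154 and 4.97 TPM, so the Hey daughter cells were the only Hey library above 1 TPM. Against parental cells the daughter difference was 2.26 in Hey and -1.35 in SKOV3, and against PGCCs it was 2.37 and -1.86. WNT7A was the only member called in opposite directions between daughter and parental cells, where 0.383% of all genes were, and with WNT5A it made 2 members called in opposite directions between daughter cells and PGCCs, where 0.766% of all genes were.

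WNT7B was at 13.4, 33.8 and 21 TPM in SKOV3 and at 1.41, 1.7 and 0.855 in Hey. It was the single member of 37 called in SKOV3 PGCCs compared with parental cells, at a difference of 1.28, where 4.40% of all genes were called. This call ended when the GC and length trend was removed, which left 0.32. WNT10A was at 13.3, 25 and 10.1 TPM in SKOV3, with 0, 0.0226 and 0 in Hey; its difference of -1.23 between SKOV3 daughter cells and PGCCs became -0.65 without the trend. The transcripts of WNT7B and WNT10A have GC contents of 63% and 63.4%.

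The other measurable ligands were weaker. WNT3, a β-catenin-activating ligand, was at 4.14, 2.26 and 3.75 TPM in Hey and 9.31, 7.81 and 4.81 in SKOV3, and passed 2-fold in 0 of the 6 within-line comparisons, although SKOV3 daughter cells were below parental cells by a difference of -1.27 after quantile normalization and -1.03 with the GC and length trend removed. WNT2B was at 0.573, 1.48 and 0.562 TPM in Hey and at 1.47, 3.3 and 11.8 in SKOV3, higher in SKOV3 daughter cells than in parental cells by 2.38 and than in PGCCs by 1.58. WNT9A was at 5.43, 4.93 and 0.993 TPM in SKOV3 and at most 0.44 in Hey, and was lower in SKOV3 daughter cells than in parental cells by a difference of -1.69. WNT3A reached 1.76 TPM and WNT4 1.15 TPM, each in 1 SKOV3 library only.

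Some neighbouring WNT genes differed widely in level. The genome carries 4 pairs of members less than 200 kb apart, and in 2 of them 1 partner was expressed and the other nearly absent. WNT10A lies 6618 bases beyond WNT6 on chromosome 2, and while WNT10A reached 25 TPM, WNT6 reached 0.0594. The outer GENCODE bounds of WNT3 and WNT9B lie 46 bases apart on opposite strands of chromosome 17, with highest values of 9.31 and 0.0182 TPM. Their RefSeq promoter windows lie much further apart, that of WNT3 at 46818693-46818942 and that of WNT9B at 46851333-46851582. WNT10B reached 0.965 TPM next to WNT1, which was listed at 0, so neither reached 1 TPM. In the remaining pair on chromosome 1, WNT3A and WNT9A, both were higher in SKOV3 than in Hey and lowest among the SKOV3 libraries in daughter cells.

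Among the receptors FZD6 was the most abundant Frizzled in all 6 libraries. It was at 47.3, 31.5 and 55.2 TPM in Hey parental cells, PGCCs and daughter cells and at 57.1, 42.8 and 69.5 in SKOV3, which is 45.6% to 61.8% of the summed FZD TPM. The order of states was the same in both lines, lowest in PGCCs and highest in daughter cells, with differences between daughter cells and PGCCs of 0.79 and 0.69. These are under 2-fold, and limma across both lines gave a difference of 0.74 (SE 0.36) with an adjusted p of 0.908.

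Beneath FZD6 the lines used different receptors. FZD8, on chromosome 10 from 35638247 to 35642296, was second in Hey parental cells and PGCCs at 19.3 and 20.9 TPM and at 7.09 TPM in Hey daughter cells, a difference of -1.33 from parental cells. In SKOV3 it was at 0.514, 0.768 and 1.03 TPM. FZD3 was at 13, 7.38 and 8.56 TPM in SKOV3 and 0.194, 1.11 and 1.24 in Hey. FZD7 was nearly level within each line, at 11.8, 11.7 and 13.7 TPM in SKOV3 and 4.5, 4.41 and 2.94 in Hey. FZD5 was at 4.22, 4 and 3.38 TPM in SKOV3 and 1.45, 1.29 and 1.59 in Hey. FZD2 was at 10.3, 19.2 and 6.45 TPM in SKOV3, lower in daughter cells than in PGCCs by a difference of -1.44, and at 7.33, 4.17 and 7.2 in Hey. FZD4, also the receptor of the non-WNT ligand norrin, was at 1.48, 3.67 and 2.81 TPM in Hey and 2.71, 2.18 and 5.4 in SKOV3, where daughter cells were above PGCCs by 1.01, a value of 0.73 with the GC and length trend removed. FZD9 and FZD10 stayed under 1 TPM.

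FZD1, on chromosome 7 from 91264433 to 91271326, had the widest range of the receptors within Hey. It was at 5.82 TPM before treatment, 1.86 TPM in PGCCs and 15.8 TPM in daughter cells, with differences of -1.25 for PGCCs and 1.30 for daughter cells compared with parental cells. In SKOV3 it was at 2.97, 2.41 and 4.06 TPM, in the same order but under 2-fold. The 9 other expressed genes within 1 Mb were all higher in daughter cells than in parental cells in both lines. Their median was 1.56 in Hey, where 8 passed 2-fold, and 0.80 in SKOV3, where 4 did. In this comparison 1.97% of all genes in Hey and 5.10% in SKOV3 were higher by 2-fold. Among expressed genes 10.0% and 21.5% were called in either direction. CDK14, the nearest of them upstream, was at 9.54, 5.11 and 30 TPM in Hey and 11.5, 11.6 and 28.5 in SKOV3. Between PGCCs and parental cells the medians of the neighbours were -0.02 in Hey and -0.25 in SKOV3. Of the 9, 0 were higher by 2-fold in either line, and CFAP69 and CLDN12 were lower by 2-fold in SKOV3. Of all genes 2.58% in Hey and 2.88% in SKOV3 were higher by 2-fold in PGCCs, and 1.52% were lower in SKOV3. The region was examined after the FZD1 values had been seen, DNA copy number was not measured in these files, and the part of the neighbourhood in the FZD1 value was not tested.

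**Figure D3:**
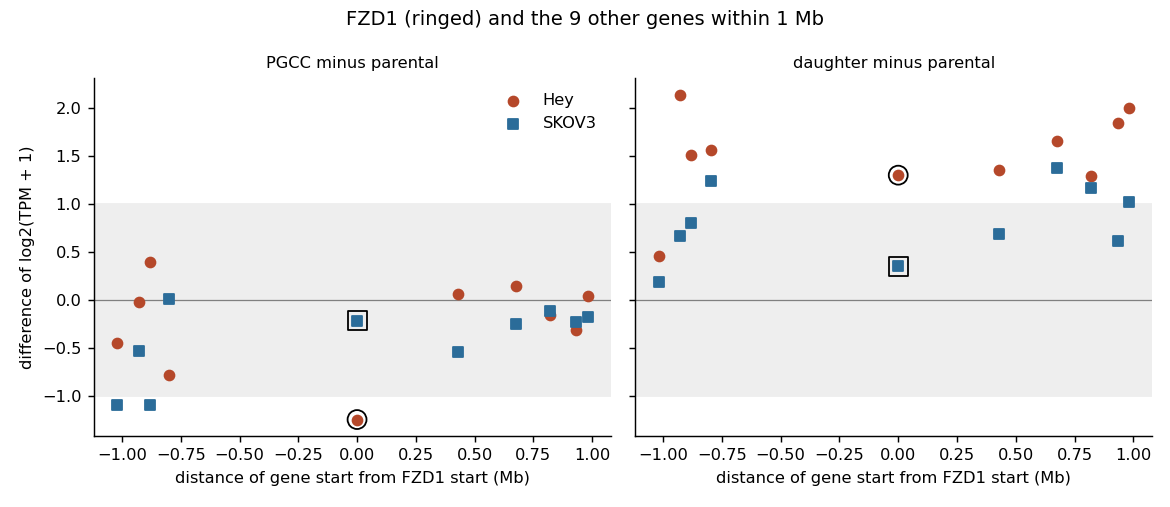
Differences of log2(TPM + 1) for FZD1 (ringed) and 9 neighbouring genes against the distance of their start from that of FZD1 in Mb, for PGCCs (left) and daughter cells (right) compared with parental cells; the grey band is under 2-fold. In daughter cells all 20 points lie above 0, while in PGCCs the points lie around or below it.

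Of the antagonists, DKK1 (chromosome 10 from 52314281 to 52318042) had a higher TPM in the PGCCs of both lines than in their parental cells. Its TPM was 193, 409 and 282 in Hey parental cells, PGCCs and daughter cells, and 139, 206 and 51.8 in SKOV3. The PGCC difference was 1.07 in Hey and 0.56 in SKOV3, of which only the first passed 2-fold; it stood at 1.00 after median-ratio scaling and 0.99 with the GC and length trend removed, just under the threshold. SKOV3 daughter cells were the lowest of all 6 libraries, at differences of -1.41 from parental cells and -1.97 from PGCCs.

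SFRP1 was highest in the parental cells of both lines. It was at 184, 65.5 and 107 TPM in Hey and at 53.4, 34.2 and 17.7 in SKOV3. In Hey the lowest value was that of PGCCs (-1.48), and in SKOV3 that of daughter cells (-1.54). SKOV3 daughter cells were below PGCCs by a difference of -0.92, which was -1.04 with the GC and length trend removed. SFRP2, SFRP4 and SFRP5 reached at most 0.393 TPM in any library, so SFRP1 accounted for at least 97.8% of SFRP TPM in each. DKK3, which despite its name does not act like DKK1 on LRP6, was the steadiest abundant member, at 66.6, 95.4 and 80.2 TPM in Hey and 70.5, 70.5 and 73.6 in SKOV3. DKK2 was at 3.01, 0.669 and 0.547 TPM in Hey, highest in the parental cells by 2-fold or more, and was listed at 0 in SKOV3.

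**Figure D4:**
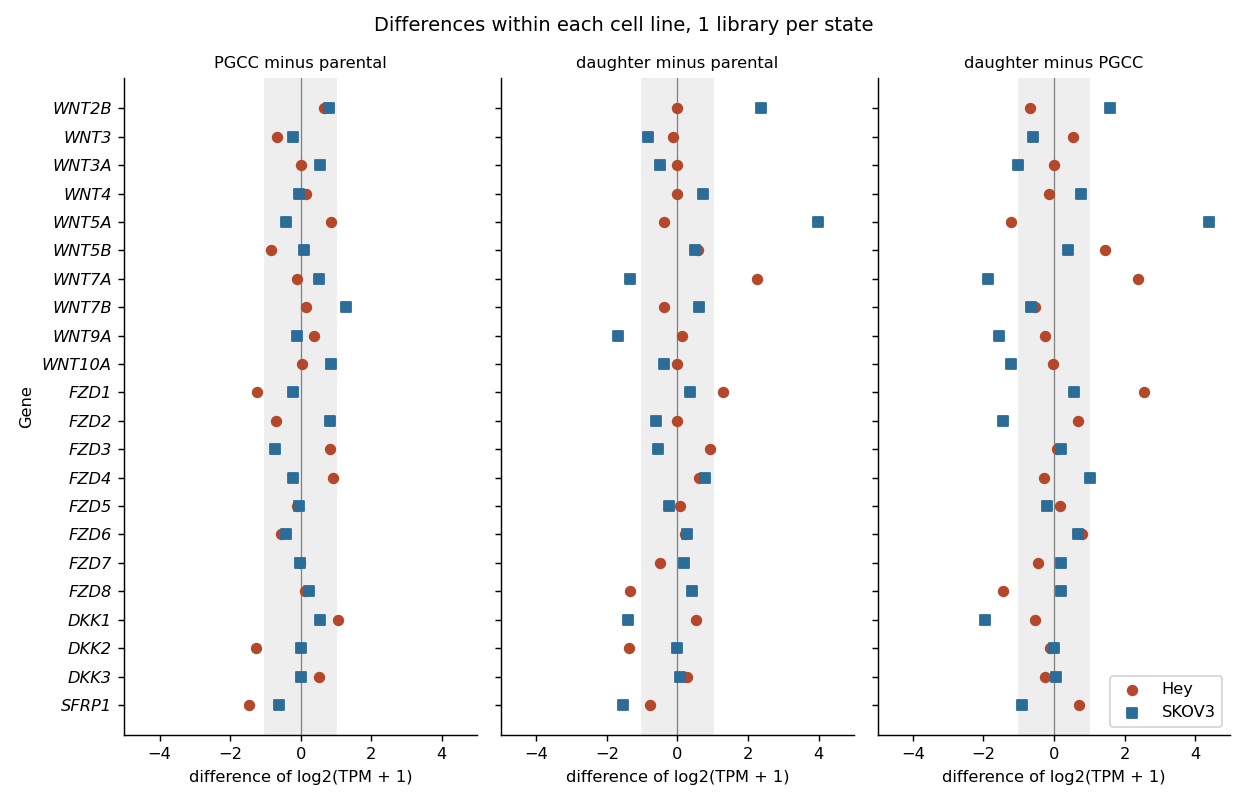
Differences of log2(TPM + 1) for 22 members between states, Hey as circles and SKOV3 as squares; the grey band is under 2-fold. WNT5A and WNT7A lie on opposite sides of 0 in the lines for daughter cells against PGCCs, and 0 members lie beyond the band on the same side in both lines in any of the 3 panels (at a pseudocount of 1 TPM).

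Counted over all 37 members, 1 was called higher and 3 lower in Hey PGCCs compared with parental cells, 4 in all, where 3.98% of all genes in the table and 12.9% of the expressed genes were called. In SKOV3 PGCCs 1 was called, with backgrounds of 4.40% and 14.9%. In daughter cells against parental cells 4 were called in Hey (backgrounds of 3.05% and 10.0%) and 6 in SKOV3 (7.06% and 21.5%). In daughter cells against PGCCs 5 were called in Hey (5.41% and 18.1%) and 9 in SKOV3 (7.59% and 23.9%), of which 6 were lower. The second percentage of each pair is over expressed genes, among which were 19 of the 37 members. Of these 19, Hey had 3 calls for PGCCs and 3 for daughter cells against parental cells, and 5 for daughter cells against PGCCs. The SKOV3 counts were 1, 6 and 8 in that order. The member median was 0.00 in all 6 comparisons, as it was over all genes; among expressed genes it was 0.15 and 0.12 in the SKOV3 daughter comparisons with parental cells and PGCCs, and at most 0.05 in the others. In each comparison 0 members passed 2-fold on the same side in Hey and SKOV3. With a pseudocount of 0.1 TPM in place of 1, which weighs low values more, there was 1 such member in each, namely WNT2B in PGCCs (1.23 in Hey and 1.12 in SKOV3), WNT10B in daughter against parental cells (1.10 in Hey) and WNT5B in daughter cells against PGCCs (1.33 in SKOV3, where it reached 0.494 TPM). Of all genes, 0.242% were higher and 0.215% lower in both lines in PGCCs against parental cells, 0.320% and 0.103% in daughter against parental cells, and 0.320% and 0.293% in daughter cells against PGCCs. Opposite directions between PGCCs and parental cells were called for 0 members and 0.330% of all genes. The comparisons share libraries, and the PGCC and daughter differences from parental cells are therefore not independent of each other.

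Across both lines, limma (a linear model fitted to all 14988 expressed genes, state and cell line as terms, 2 residual degrees of freedom) tested 19 members. In each of the 3 state comparisons 0 of the 19 had an adjusted p under 0.05, where 0.0200%, 0.0133% and 0.00% of genes did. An unadjusted p under 0.05 was reached by 409, 508 and 758 of the 14988 genes, in the order that follows. Among the members there were 0 for PGCCs against parental cells, 1 for daughter against parental cells and 2 for daughter cells against PGCCs. These were SFRP1, lower in daughter than in parental cells in 2 of 2 lines by a mean of -1.16 (SE 0.46, unadjusted p = 0.0382 by limma, adjusted p = 1), DKK1 at -1.25 (SE 0.51, unadjusted p = 0.0407 by limma, adjusted p = 0.908) and FZD1 at 1.56 (SE 0.57, unadjusted p = 0.0275 by limma, adjusted p = 0.908). DKK1 was lower and FZD1 higher in daughter cells than in PGCCs in 2 of 2 lines.

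By limma, of the 19 members tested, 9 had an adjusted p under 0.05 between the lines and 0 in each state comparison. All genes tested went the same way, at 20.6% between the lines and at most 0.0200% between states. All 3 Hey values lay above all 3 SKOV3 values for 4 members (WNT5B, FZD8, DKK2 and SFRP1) and below them for 11 (WNT3, WNT3A, WNT4, WNT7A, WNT7B, WNT9A, WNT10A, FZD3, FZD5, FZD7 and FZD9), 15 of 37 in all, with 6 above and 9 below after median-ratio scaling. Among all genes the lines did not overlap for 15.6% (4.51% with Hey higher and 11.1% with SKOV3 higher), and among expressed genes for 44.6%. With 3 against 3 an exact permutation test cannot go below p = 0.10. Of these FZD9 reached 0.251 TPM and WNT4 1.15 TPM at most. The SKOV3 excess is also that of the table, since among expressed genes the median of Hey minus SKOV3 was -0.29, -0.35 and -0.38 in the parental, PGCC and daughter libraries.

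By limma 9 of the 19 members tested had an adjusted p under 0.05 between the lines, 3 higher in Hey and 6 higher in SKOV3, where 20.6% of all genes tested had one. The difference Hey minus SKOV3 was 4.92 (SE 0.38) for WNT5B with an adjusted p of 3.94e-04 by limma, 3.13 (SE 0.46) for FZD8 with 0.00484 and 1.74 (SE 0.38) for SFRP1 with 0.0188. It was -3.99 (SE 0.42) for WNT10A with an adjusted p of 0.0012 by limma, -3.28 (SE 0.39) for WNT7B with 0.00191 and -2.54 (SE 0.46) for FZD3 with 0.00967. It was -3.22 (SE 0.77) for WNT7A, -1.45 (SE 0.35) for FZD7 and -1.77 (SE 0.52) for WNT9A, with adjusted p of 0.0266, 0.028 and 0.0494 by limma. WNT5A had a difference of 0.88 (SE 0.95, adjusted p = 0.532 by limma), with Hey higher in 2 states and SKOV3 in the daughter cells. Each group here is 3 states of 1 cell line and not repeated cultures, so the SE holds the changes between states that differed between the lines. Left without the Hey PGCC or the SKOV3 PGCC library the model called 0 members, without the Hey parental library 3 (WNT5B, WNT7B and WNT10A) and without the SKOV3 parental library 4, FZD8 being added. Without either daughter library 8 were called, WNT5A among them. With every gene above 0 TPM in the fit WNT5B alone was called, and median-ratio scaling gave 4 members higher in Hey and 4 in SKOV3.

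**Figure D5:**
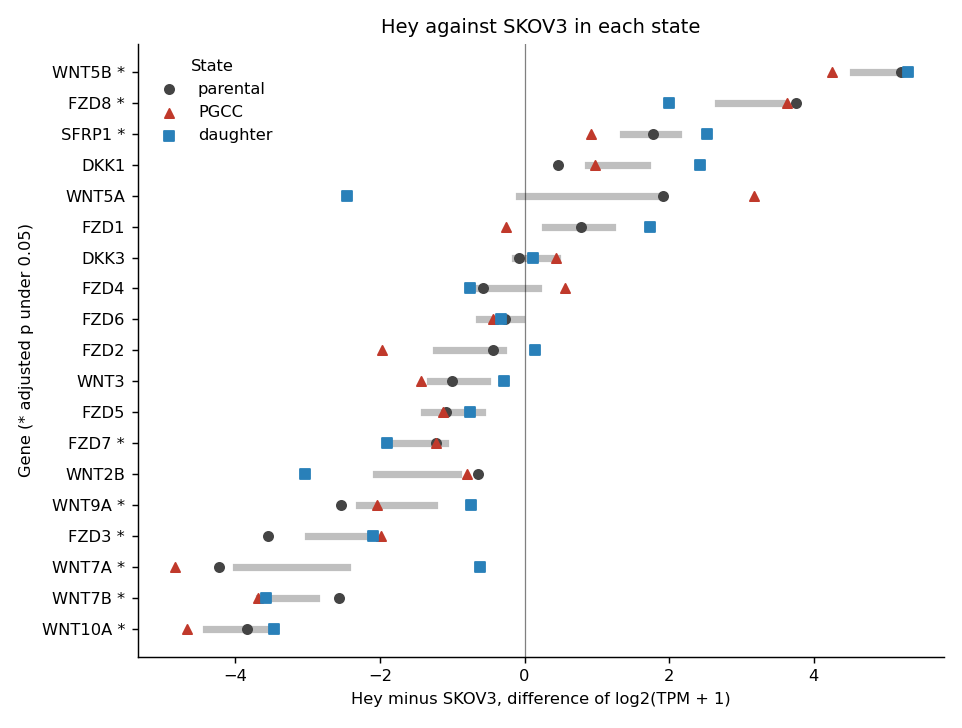
Hey minus SKOV3 difference of log2(TPM + 1) for the 19 members tested, with a symbol per state and a grey bar of ± 1 SE around the limma estimate; asterisks mark an adjusted p under 0.05. WNT5B and FZD8 lie right of 0 in all 3 states, WNT10A and WNT7B left of it, and the WNT5A symbols fall on both sides.

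The other pathway genes were a list of 77 chosen by role (secretion, coreceptors, R-spondin axis, extracellular inhibitors, cytoplasm, nucleus, targets and planar polarity). In PGCCs compared with parental cells 1 was called higher and 4 lower in Hey, and 7 higher and 1 lower in SKOV3, where 2.58% and 1.40% of all genes were higher and lower in Hey and 2.88% and 1.52% in SKOV3. In daughter cells compared with parental cells 3 were higher and 3 lower in Hey, and 6 higher and 5 lower in SKOV3, against 1.97% and 1.08% of all genes in Hey and 5.10% and 1.96% in SKOV3. In daughter cells compared with PGCCs 9 were higher and 2 lower in Hey, and 6 higher and 3 lower in SKOV3, against 2.76% and 2.65% of all genes in Hey and 4.80% and 2.79% in SKOV3. PORCN, the acyltransferase that attaches the lipid WNT proteins need for secretion, was higher in the PGCCs of both lines. It was at 0.873, 3.71 and 1.97 TPM in Hey and at 14, 31.4 and 6.02 in SKOV3, with PGCC differences of 1.33 and 1.11; in SKOV3 the latter was 0.48 with the GC and length trend removed. WLS, the carrier that brings WNT proteins to the cell surface, was at 145, 126 and 110 TPM in Hey and 21.5, 17 and 22.2 in SKOV3.

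LEF1, a β-catenin partner and itself a target of the pathway, was higher in the daughter cells of both lines than in parental cells. Its TPM was 5.5, 3.2 and 18.4 in Hey and 0.218, 0.281 and 1.59 in SKOV3, and the daughter differences were 1.58 and 1.09. With the GC and length trend removed they were 1.45 and 0.84, the latter under 2-fold, as was the SKOV3 value after median-ratio scaling (0.92) and quantile normalization (0.66). TCF7 differed in sign, at 3, 3 and 7.9 TPM in Hey and 8.48, 9.22 and 3.69 in SKOV3. Its differences between daughter cells and PGCCs, 1.15 and -1.12, were 0.93 and -0.87 with the GC and length trend removed. AXIN2, a widely used readout of β-catenin signalling, was at 0.149, 0.71 and 0.523 TPM in Hey and at 4.23, 1.5 and 1.22 TPM in SKOV3, with differences of -1.07 and -1.24 from parental cells in SKOV3 PGCCs and daughter cells. LGR5, an R-spondin receptor and target gene, was at 6.13, 3.4 and 2.05 TPM in Hey and at most 0.0182 in SKOV3. The ubiquitin ligases that remove Frizzleds from the surface were low, RNF43 at most 0.969 TPM and ZNRF3 at 2.06, 1.2 and 2.58 TPM in Hey and 5.73, 5.47 and 5.61 in SKOV3. NOTUM, which removes the lipid from WNT proteins, was listed at 0 in Hey and reached 3.15 TPM in SKOV3 daughter cells.

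Receptor partners of the WNT5 ligands also differed between libraries. ROR2 was at 3.04 TPM in SKOV3 daughter cells, the library with the highest WNT5A, and at most 0.0493 TPM in the other 5. ROR1 was at 1.63, 1.9 and 2.94 TPM in Hey and 7.64, 6.94 and 8.45 in SKOV3. LRP6 was at 12.1, 13.5 and 17.8 TPM in Hey and 6.67, 9.49 and 12.7 in SKOV3, highest in the daughter cells of each line by less than 2-fold. LRP5 was at 7.27, 3.04 and 6.37 TPM in Hey and 3.72, 10.5 and 7.22 in SKOV3, with PGCC differences of -1.03 and 1.28. With the GC and length trend removed these were -0.82 and 0.28, and the Hey value was -0.92 without mitochondrial genes, so neither call stood. CTNNB1, which encodes β-catenin, was abundant in all libraries at 282, 213 and 257 TPM in Hey and 162, 171 and 204 in SKOV3. By limma 0 of the 53 list genes tested had an adjusted p under 0.05 in a state comparison. At an unadjusted p under 0.05 by limma there were 0, 2 and 3 list genes, and 409, 508 and 758 of all 14988 genes tested. Between the lines 19 of the 53 had an adjusted p under 0.05 by limma, 9 higher in Hey and 10 in SKOV3, against the same 20.6% of all genes.

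Exons of 9 members overlap those of another annotated gene, 7 of them members that reached 1 TPM. The overlap of FZD4 is with PRSS23, which was at 54.9 to 247 TPM on the opposite strand, while FZD4 was at 1.48 to 5.4. That of WNT2B is with ST7L at 12.4 to 38 TPM, and that of DKK1 with PRKG1-AS1 at 2.81 to 8.21 TPM. DKK3 overlaps USP47 at 23.9 to 44.2 TPM, and FZD6 overlaps BAALC-AS1 at 2.67 to 10.8 TPM. The opposite-strand partners of WNT4 and FZD8 have no TPM here. Whether the libraries kept the strand is not given in the sources used here. Reads of these members therefore cannot be told apart with certainty from those of the opposite gene.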

How the data were processed

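RNA sequencing of 6 libraries (Hey and SKOV3, each as parental cells, PGCCs and daughter cells, 1 library per condition) was analysed from the TPM values deposited by the authors. The submitters' processing notes name fastp, Salmon 0.14.1 and the hg38 build; the annotation, the strand setting and how transcripts were summed to genes are not given in the sources used here. The deposited columns sum to between 911825 and 920497 TPM, with 19920 to 25370 genes above 0. TPM holds no read depth, so counting intervals could not be given.

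Differences of log2(TPM + 1) were taken within each line and called at 2-fold. With limma 3.58.1 (R 4.3.3), state and cell line were fitted to the 14988 genes that average at least 1 TPM, with a trend of variance on intensity. Tests were two-sided, and p-values were adjusted over these genes after Benjamini-Hochberg. The labels do not describe repeated cultures, so p-values measure only the spread between these libraries. GC content and transcript length were taken from GENCODE release 44, and their trend in each difference was removed by lowess (fraction 0.3, 2 passes) for 13468 genes. The scripts were run on simulated data as a check of the code. The limma simulation used a fixed noise and no difference between the lines, so it gives no error rate for these data. Members, the pathway list and the marker lists were chosen with earlier results of these data known. Members that reached 1 TPM are given by library and the rest by counts. Of the pathway list, genes that passed 2-fold on the same side in Hey and SKOV3 or by limma between states are named, with 14 genes chosen by role. Promoter sequences are from RefSeq. Alternatives were another pseudocount, filters, fold thresholds, scalings, model terms, removal of the GC and length trend and of each library.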

Additional observations from a re-analysis of the deposited data

Results flagged for a closer look

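Some genes were called in opposite directions in the lines; with 1 library per condition the difference between the lines was not tested. WNT7A differed by 2.26 in Hey and -1.35 in SKOV3 between daughter and parental cells, and by 2.37 and -1.86 between daughter cells and PGCCs. WNT5A differed by -1.22 in Hey and 4.40 in SKOV3 between daughter cells and PGCCs. TCF7, a nuclear partner of β-catenin, differed by 1.15 and -1.02 between daughter and parental cells, and by 1.15 and -1.12 between daughter cells and PGCCs. The latter pair was 0.93 and -0.87 with the GC and length trend removed, and of the former the Hey value was 0.89 after quantile normalization and the SKOV3 value -0.96 without mitochondrial genes, all under 2-fold. LRP5, a WNT coreceptor, differed by -1.03 and 1.28 between PGCCs and parental cells, and DVL1, a cytoplasmic transducer of Frizzled signals, by -1.14 and 1.46. With the GC and length trend removed LRP5 was at -0.82 in Hey and 0.28 in SKOV3, and DVL1 at -0.98 and 0.32, so neither gene was then called in the PGCCs of either line.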

How the results depend on the processing

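Of the 29 member differences called at 2-fold, 24 stayed at 2-fold under another pseudocount, other scalings and removal of the GC and length trend, where these could be computed (26 with the trend removed), and 0 changed sign. The exceptions were DKK1 in Hey PGCCs (1.00 after median-ratio scaling and 0.99 without the trend), WNT7B in SKOV3 PGCCs (0.32 without the trend), and, between SKOV3 daughter cells and PGCCs, WNT3A (just under 2-fold after median-ratio scaling), WNT10A (-0.65 without the trend) and FZD4 (0.86 after median-ratio scaling, 0.73 after quantile normalization and 0.73 without the trend). Of 50 pathway list differences 28 stayed, and 1 changed sign, CELSR2 in SKOV3 PGCCs (-0.01 without the trend); the cause was not tested.

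Counts of calls moved more. In Hey PGCCs against parental cells the 4 members became 8 with a pseudocount of 0.1, 11 at 1.5-fold, 0 at 3-fold and 2 without the trend, and the 5 list genes became 9, 13, 0 and 2, and 2 without mitochondrial genes. In Hey daughter against parental cells the 4 members became 8 at 1.5-fold and 1 at 3-fold, and the 6 list genes 15 and 0, and 12 with a pseudocount of 0.1. In Hey daughter cells against PGCCs the 5 members became 9 at 1.5-fold and 2 at 3-fold, and the 11 list genes 17 with a pseudocount of 0.1 and 1 at 3-fold. In SKOV3 PGCCs against parental cells the 1 member became 3 with a pseudocount of 0.1, 7 at 1.5-fold, 0 at 3-fold and 0 without the trend, and the 8 list genes 13, 22, 0 and 1. In SKOV3 daughter against parental cells the 6 members became 13 with a pseudocount of 0.1, 13 at 1.5-fold and 3 at 3-fold, and the 11 list genes 23, 27 and 3, and 7 without the trend, of which 1 was higher. In SKOV3 daughter cells against PGCCs the 9 members became 14, 14 and 3, and the 9 list genes 20, 22 and 3, and 5 with a mean TPM of at least 1.

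Between the lines limma called 9 members, and 1 with all genes above 0 TPM. The calls without 1 library, given above, changed with the library left out, and 1 residual degree of freedom was left. The remaining library of that state is then fitted exactly by its state term. The line difference then rests on the other states, so leaving out the Hey or the SKOV3 library of a state is not a separate check. The state comparisons stayed at 0 members in every alternative fit. Without the SKOV3 PGCC library, an alternative chosen after seeing the data, 17 in place of 15 members did not overlap between the lines. The state comparisons had the cell line as a block, and without it they also gave 0 members. With a single library per condition a 2-fold call has no error, and differences among genes near 1 TPM depend on the pseudocount.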
